A study of Rattus norvegicus with 8 samples.

Results

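GH3 and MMQ cells were set against each other over all treatments, using the 8 arrays of the series, 4 of GH3 cells and 4 of MMQ cells. An array was taken by the cell line and the treatment in its label, and each GH3 array was paired with the MMQ array of the same treatment, which were untreated control, bromocriptine (BRC), cabergoline (CAB) and both drugs (CAB+BRC). GH3 and MMQ are rat pituitary tumour lines. GH3 cells are known to secrete prolactin and growth hormone, and MMQ cells to secrete prolactin. The labels give different media for the lines, Ham's F10 for GH3 cells and F12 for MMQ cells, with the same sera. The study's methods name MMQ before GH3 cells and F10 before F12, which read in order is the reverse. Either way, line and medium cannot be told apart. The dose was 50 μM for both single-drug pairs and is not given for each drug of the combination. A time of 48 h is stated for both control arrays, GH3 BRC and MMQ CAB, so no treated pair has a stated time in both lines. The drugs came in DMSO, and the labels do not say whether the control arrays received it. Each line and treatment has 1 array, and nothing says that the arrays of a line came from separate cultures.

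Lactotroph tumour lines keep the hormone programme of the pituitary cell they derive from to different degrees. Bromocriptine and cabergoline are ergot derivatives that act on dopamine receptors of the D2 type, through which dopamine holds back prolactin release and lactotroph growth. GH3 cells are known for low or absent D2 receptor, whereas MMQ cells are known to carry it. The comparison asks how large the difference between the lines is, how steady it is from treatment to treatment, and how it compares in size with the effect of a drug within a line.

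The values were intensities on a linear scale for 28295 probe sets per array, with array medians between 45.9 and 49.9. They were used as log2 of the intensity plus 1, which understates the difference of dim probe sets. The names that come with the rows did not go with the values. In 2778 pairs of rows that carry the same gene symbol, the mean line differences had a correlation of 0.00 across pairs. In the 76 pairs with both rows at least 2-fold apart between the lines, 36 (47.4%) had the same sign. The row named Gh1 had an intensity of 12.5 to 13.9 and the row named Prl of 9.705 to 16.2, so the labelled lines could not be checked by their hormones. Genes are therefore named only where the fold printed in the study's gene tables equals the ratio of exactly 1 row. That held for 24 of 26 entries, which are 23 rows, and 20 of these genes are described. All other rows are described by number and value alone.

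The lines were far apart whatever the treatment. Over all probe sets, the root mean square log2 difference between a GH3 and an MMQ array was 0.950 to 1.03 in the 16 such pairs. Between arrays of one line it was 0.207 to 0.378 in the 6 GH3 pairs and 0.251 to 0.418 in the 6 MMQ pairs, and these ranges do not reach the smallest distance between the lines. The arrays of a line also had an order of their own. The GH3 control stood apart from the treated GH3 arrays by 0.347 to 0.378, while the 3 treated arrays were 0.207 to 0.291 from each other. In MMQ cells, control and BRC were 0.251 apart and CAB and CAB+BRC 0.308, with 0.347 to 0.418 between these sets. The distance of the lines at the same treatment was 0.950 for control, 0.985 for BRC, 1.02 for CAB and 1.02 for CAB+BRC, and with 1 array each these values have no error.

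**Figure D1:**
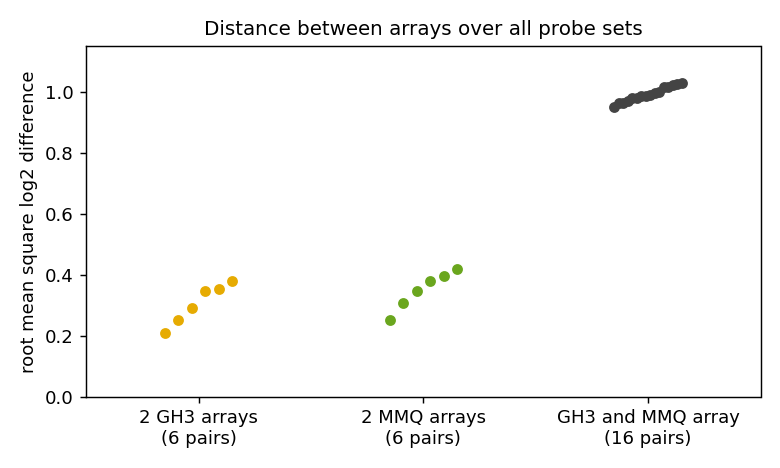
Root mean square log2 difference over 28295 probe sets (vertical axis, from 0) for every pair of the 8 arrays, 1 point per pair, in order of size within each set. The 16 pairs of a GH3 and an MMQ array lie at 0.950 or more, and the 12 pairs within a line at 0.418 or less.

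In the control pair 2480 probe sets were at least 2-fold higher in GH3 cells and 1808 at least 2-fold lower, 15.2% of all. The BRC pair had 2431 higher and 2340 lower (16.9%), the CAB pair 2832 and 2192 (17.8%), and the CAB+BRC pair 2600 and 2495 (18.0%). Against the control of the same line, GH3 cells had 510 probe sets at least 2-fold apart under BRC (1.80%), 687 under CAB (2.43%) and 469 under CAB+BRC (1.66%). MMQ cells had 74 under BRC (0.262%), 695 under CAB (2.46%) and 711 under CAB+BRC (2.51%). Every count between lines was thus above every count of a drug against control. Large steps were almost all between lines. At least 16-fold apart were 291 to 317 probe sets in the line pairs, against 0 to 1 in the drug pairs. These pairs hold 1 array on each side and give no test, and the 3 drug pairs of a line share its control array.

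**Figure D2:**
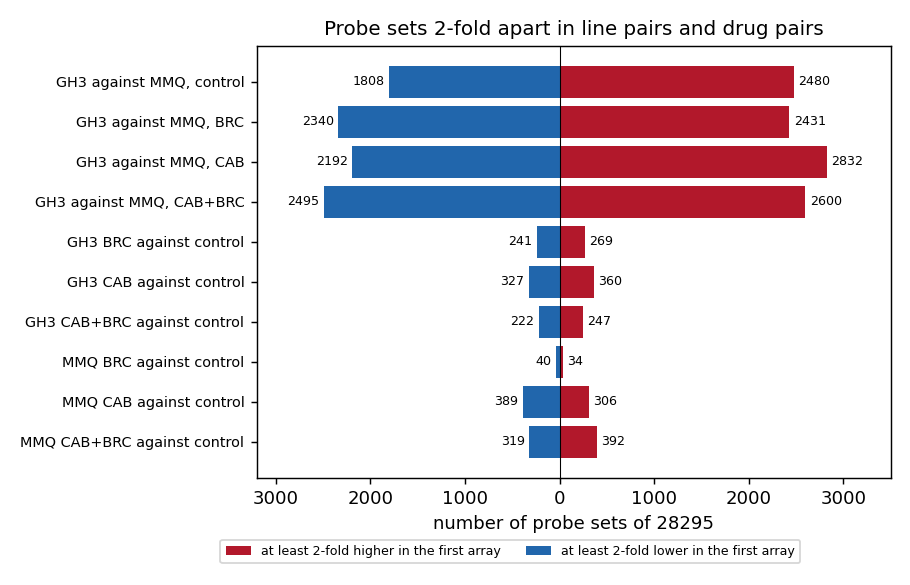
Number of probe sets of 28295 at least 2-fold higher (red, right) or lower (blue, left) in GH3 than in MMQ cells or in treated than in control cells, for the 4 pairs of lines at the same treatment and the 6 pairs of a treated array and the control of its line. The shortest line bars (1808 lower and 2431 higher) are longer than the longest drug bars (389 lower and 392 higher).

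Most probe sets that differed between the untreated lines differed again under drug, in arrays that are not shared between the pairs. Of the 2480 higher in the GH3 control, 1781 (71.8%) were again at least 2-fold higher in the BRC pair, 1877 (75.7%) in the CAB pair and 1793 (72.3%) in the CAB+BRC pair, where 8.59%, 10.0% and 9.19% of all probe sets were. Of the 1808 lower ones, 1427 (78.9%), 1289 (71.3%) and 1421 (78.6%) were again lower, where 8.27%, 7.75% and 8.82% of all probe sets were. The median size of the difference held as well. It was 1.55 on the log2 scale in the control pair for the 4288 probe sets of either direction, and 1.53, 1.54 and 1.58 in the BRC, CAB and CAB+BRC pairs. Across all probe sets the correlation between the differences of 2 pairs was 0.853 to 0.922, a description over 28295 rows that share the arrays of each pair.

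In all 4 pairs 2562 probe sets (9.05%) were at least 2-fold apart in the same direction. Of these, 1464 were higher in GH3 cells (5.17%) and 1098 lower (3.88%). The median mean difference was 2.12 for the higher and -1.97 for the lower set on the log2 scale. The standard deviation of the 4 pair differences had a median of 0.33 in both, on the same scale. The higher set had a median intensity of 186 in GH3 and 28.5 in MMQ cells, and the lower set of 37.7 in GH3 and 215 in MMQ cells. In the line with the lower signal, the median over all probe sets was 37.9, so the lower set was at this level and the higher set under it. Of the 2950 probe sets with a control difference of 1 to 2 on the log2 scale, 44.2% were at least 2-fold apart the same way in the other 3 pairs. This share was 90.5% of 728 for a difference of 2 to 3, 97.2% of 319 for 3 to 4 and 99.3% of 291 for 4 and over, which a fixed 2-fold cutoff favours as the distance from it grows. The differences themselves were not steadier where they were larger. The median standard deviation of the other 3 pairs was 0.21 on the log2 scale for a control difference under 1, and 0.29, 0.33, 0.37 and 0.35 in the steps above.

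The rows at the ends of the scale have no reliable name and are given by their values. The largest mean difference towards GH3 cells, 8.39 on the log2 scale, belonged to a row with intensities of 17498, 15270, 16504 and 14820 in GH3 control, BRC, CAB and CAB+BRC, against 49.9, 53.1, 43.0 and 41.2 in MMQ cells. The largest towards MMQ cells, -10.4, belonged to a row at 13.5, 13.6, 13.7 and 13.5 in GH3 cells against 20398, 22156, 17423 and 20661. In neither row did a treatment bring the lines near each other. The standard deviation of their 4 pair differences was 0.18 and 0.15. In the second row the MMQ values were the highest of each MMQ array and the GH3 values were under the first quartile of each GH3 array (15.7 to 16.3), so its spread was measured between the ends of the intensity range.

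**Figure D3:**
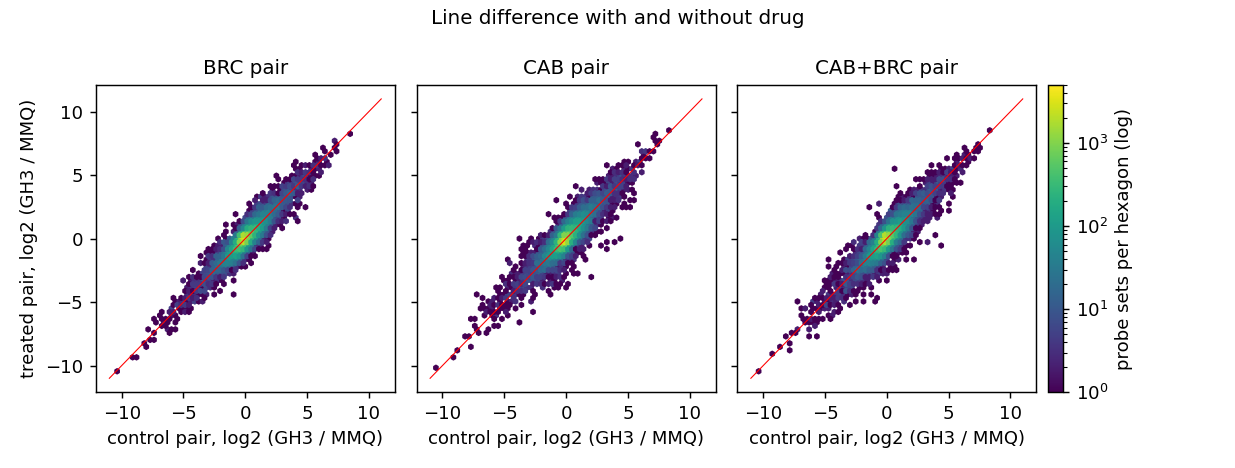
Log2 difference between GH3 and MMQ cells in the control pair (horizontal) and in the BRC, CAB or CAB+BRC pair (vertical) for 28295 probe sets, with colour for the number of probe sets per hexagon on a log scale and a red line of equality. The cloud follows the line in all 3 panels, with correlations of 0.897, 0.872 and 0.876.

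With the treatment as a block, limma's test called 8001 of the 14147 probe sets (56.6%) that were brighter on average than the median probe set, at an adjusted p under 0.05. Of these, 3932 were higher in GH3 cells (27.8%) and 4069 lower (28.8%), and 3085 of the calls were at least 2-fold. The smallest called difference was 0.31 on the log2 scale. The spread in this fit is how far the line difference moved between treatments, array noise included (median standard error 0.14). It is not the spread between cultures, which these arrays do not give. A small p therefore says that the mean difference over the treatments was away from 0 beside that spread. It does not say that the difference was present at every treatment or would be found in other cultures of these lines. In the same fit, with the same spread, limma's F test for a treatment effect common to both lines gave 0 calls (0%), and 743 probe sets had an unadjusted p under 0.05. The smallest adjusted p of that test was 0.397. Each treatment against control over both lines also gave 0 calls in limma, where 473 (BRC), 1277 (CAB) and 1297 (CAB+BRC) probe sets had an unadjusted p under 0.05. Such an effect was measured with a median standard error of 0.20, since it rests on 2 arrays against 2.

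The sum of squares over the 8 arrays puts line and treatment on one scale. Pooled over the tested probe sets, the line took 85.7% of it, treatment common to both lines 7.39% and the remainder, which holds both array noise and treatment effects that differed between the lines, 6.93%. In the typical probe set the line took less, with a median of 64.5%, and it took over 50% in 60.8% of probe sets. Treatment took over 50% in 1639 probe sets, or 11.6%. The shares are not corrected for degrees of freedom, of which treatment, with 4 levels, has more than line. Noise alone therefore gives treatment a larger share than line. A treatment share over 50% is not by itself a treatment effect. Brightness mattered for this share. With all probe sets split by brightness into 4 groups of equal size, the line took 52.3% of the pooled sum in the dimmest group, and 85.3%, 88.7% and 80.2% in the groups above it.

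**Figure D4:**
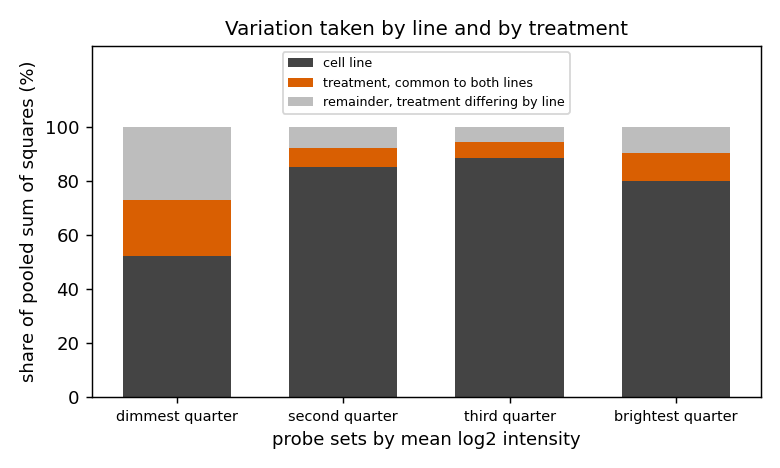
Share of the pooled sum of squares of the log2 values over the 8 arrays (vertical axis, %, stacked) taken by cell line (dark), by treatment common to both lines (orange) and by the remainder (light), for 4 equal groups of probe sets by mean log2 intensity. The line share is 52.3% in the dimmest group and 80.2% to 88.7% in the others.

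The line difference itself was then tested for a change with each drug, that is for a drug effect that differed between GH3 and MMQ cells. CAB had 20 such probe sets in limma (0.141%). In all 20 the CAB effect was the larger one in MMQ cells, at 1.41 to 2.97 on the log2 scale in either direction, against 0.04 to 0.76 in GH3 cells. With CAB the line difference moved towards MMQ cells in 16 and towards GH3 cells in 4. The median size of the difference was 0.57 without CAB and 2.61 with it, and in 15 of the 20 it was under 2-fold without CAB. It was larger with CAB in 18 of the 20. In 19 of the 20 the CAB effects of the lines had opposite signs. A pick on the difference between the effects favours opposite signs, and the sign of the small GH3 effects was not tested. These 20 were picked by the test on the same arrays, so the sizes and signs describe the calls and give them no further support. An example without a name had 113, 109, 89.1 and 108 in GH3 control, BRC, CAB and CAB+BRC, and 143, 96.7, 879 and 656 in MMQ cells. For BRC limma called 0 (0%), with 2194 at an unadjusted p under 0.05 against 2093 for CAB. That the drugs differ in this respect was not tested. The spread in this fit has 2 residual degrees of freedom, and the count for CAB hung on it. Without 1 array of MMQ cells it was 0 (BRC or CAB+BRC left out) or 2 (control or CAB left out), and without 1 array of GH3 cells it was 431 (BRC or CAB+BRC left out) or 183 (control or CAB left out). The BRC count was 0 in all 8 of these fits. For each drug the fits repeat each other in pairs, and they leave fewer residual degrees of freedom, so they are not 8 separate checks.

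In treated line pairs, probe sets that moved with a drug were more often than others different between the lines. This was read in line pairs that hold neither array of the drug pair, so the control pair was not used. Of the 306 probe sets at least 2-fold higher with CAB than in the MMQ control, 141 (46.1%, exact binomial 95% interval 40.4% to 51.8%) were at least 2-fold apart between the lines in the BRC pair, as were 144 of the 389 lower ones (37.0%, 32.2% to 42.0%). Over all probe sets the share was 16.9%. Of the 269 probe sets higher with BRC than in the GH3 control, 174 (64.7%, 58.6% to 70.4%) were 2-fold apart in the CAB pair, 148 of them higher in GH3 cells. Of the 241 lower with BRC, 125 (51.9%, 45.4% to 58.3%) were 2-fold apart in the CAB pair, 79 of them higher in GH3 cells, where the share of all was 17.8%. At least 2-fold higher in GH3 cells in that pair were 55.0% of the 269 and 32.8% of the 241, against 10.0% of all. The intervals cover counting alone, and probe sets are not independent. Over the 16 combinations of drug pair, direction and line pair the share was 35.5% to 68.4%, against 16.9% to 18.0% over all probe sets. Brightness moves with it. Among the tested, brighter probe sets the shares were 28.6% to 87.0% against a background of 24.3% to 25.5%. All 16 were above the background in both settings, but among the brighter probe sets 1 of the 16 intervals reached it. The 16 are not separate results, since each list of probe sets is read in more than 1 line pair. Lists of a line also share its control array, and the tally is no test. The interval that reached the background was for the probe sets higher with BRC in MMQ cells. Of these, 6 of 21 (28.6%, 11.3% to 52.2%) were 2-fold apart in the CAB+BRC pair against 25.5%. Every line pair used here holds treated arrays with drug effects of their own, the BRC pair included, and their part in these shares was not tested.

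The named genes were picked by the study for a drug effect in one line, in GH3 cells with BRC or in MMQ cells with CAB. Their line differences are thus no sample of all line differences. The treatments that the pick did not use were CAB and CAB+BRC for the first set (LGALS9, EGR1, BLNK, ASTN1, KCNMA1, GAA and DPP7) and BRC and CAB+BRC for the others, except LGALS3. The CAB+BRC arrays still hold the drug of the pick. For RSAD2, ACSS2, DDIT3, SQSTM1, SHCBP1, CDCA3 and ASPM the mean over the unused pairs joins differences of opposite sign. Of the 20 genes, 15 were bright enough to be tested. Of these 15 limma called 7, against 56.6% called over all tested, with 5 higher and 2 lower in GH3 cells. The other 8 were not called. Over the 23 identified rows 9 of 17 were called. At least 2-fold apart one way in all 4 pairs were 4 of the 20 genes, where 9.05% of all probe sets were. Intensities of the lines did not overlap for 6 of the 20, against 40.0% of all probe sets.

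BLNK, an adaptor that links the B cell receptor to its signalling enzymes, had the largest mean difference towards GH3 cells of the named genes over all 4 pairs. GH3 arrays read 59.7, 259, 176 and 235 in the order control, BRC, CAB and CAB+BRC, and MMQ arrays 10.3, 7.10, 7.98 and 8.26. GH3 cells were above MMQ cells at every treatment, and MMQ cells stayed near the low end of the array. The mean log2 difference was 4.10 (SD 1.16 over the 4 pairs), and 4.49 over the unused CAB and CAB+BRC pairs, where that of EGR1 was larger, at 4.88. BLNK was too dim on average for the main test. LGALS9, a galectin that binds sugar chains on cell surfaces, had 31.2, 154, 127 and 144 in GH3 cells in the same order and 11.6, 15.4, 13.9 and 14.8 in MMQ cells. Again the groups did not overlap, with a mean log2 difference of 2.72 (SD 0.92 over 4 pairs), and 3.148 over the unused pairs. ASTN1, an adhesion protein of migrating neurons, was at 9.11 against 8.51 in the control pair, and at 33.5, 53.3 and 25.4 in treated GH3 cells against 7.48, 9.07 and 6.79. Here the control pair differed by 0.09 on the log2 scale, the treated pairs by 1.76 to 2.43, and the mean over the unused pairs was 2.10. Without the filter on dim probe sets the limma adjusted p was 0.000122 for BLNK, 0.000330 for LGALS9 and 0.00812 for ASTN1.

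ATP6V1G3, part of the vacuolar ATPase, which pumps protons into lysosomes, was higher in GH3 cells at each treatment. GH3 arrays read 969, 194, 299 and 219 in the order control, BRC, CAB and CAB+BRC, and MMQ arrays 196, 57.1, 20.2 and 18.7. The lowest GH3 value lay just under the MMQ control, so the lines overlapped although each pair was at least 2-fold apart. By limma's fit GH3 cells exceeded MMQ cells by 2.839 on the log2 scale (adjusted p = 0.000238, 95% interval 2.08 to 3.59), and by 2.62 over the pairs not used in the pick. AP1S2, a small subunit of the clathrin adaptor that sorts cargo at the Golgi, was at 72.2, 111, 170 and 145 in GH3 cells and at 11.9, 10.0, 84.5 and 72.3 in MMQ cells. Its difference was 2.51 and 3.35 on the log2 scale in the control and BRC pairs, and 1.00 in both pairs with CAB. The mean was 1.96 (95% interval 1.08 to 2.85, adjusted p = 0.00325 in limma), and 2.17 over the unused pairs.

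EGR1, an immediate early transcription factor, was at 413, 2037, 791 and 2390 in GH3 control, BRC, CAB and CAB+BRC, and at 256, 521, 42.4 and 49.3 in MMQ cells. Its line difference was 0.69 in the control pair, 1.97 under BRC, 4.19 under CAB and 5.57 under both drugs on the log2 scale. The gap was thus under 2-fold in untreated cells and widest with both drugs. The mean was 3.10 (95% interval 1.49 to 4.72, adjusted p = 0.00633 in limma), and the lines overlapped because MMQ cells with BRC lay above the GH3 control. KCNMA1, the pore subunit of the large-conductance calcium-activated potassium channel, was lower in GH3 than in MMQ control cells, at 72.4 against 122. With drug it was higher in GH3 cells, at 262 against 62.9 under BRC, 233 against 26.5 under CAB and 252 against 35.5 under CAB+BRC. The mean over the pairs was 1.80 on the log2 scale (adjusted p = 0.0261 in limma, 95% interval 0.50 to 3.09), and 2.9396 over the unused pairs. The call was lost without the BRC pair (adjusted p = 0.0631 in limma), the CAB pair (0.0961) or the CAB+BRC pair (0.0897).

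On the MMQ side, GPNMB, a membrane glycoprotein of lysosomes and melanosomes, was 15.9, 53.4, 24.0 and 47.6 in GH3 cells and 233, 454, 2267 and 2237 in MMQ cells. Every MMQ array was above every GH3 array. The log2 difference was -3.79 and -3.06 in the control and BRC pairs and -6.50 and -5.52 in the pairs with CAB. The mean was -4.72 (95% interval -5.89 to -3.55, adjusted p = 0.000167 in limma), and -4.29 over the unused pairs. MVD, an enzyme of the mevalonate pathway that makes sterol precursors, was at 150, 163, 119 and 141 in GH3 cells and at 259, 197, 1698 and 939 in MMQ cells. The lines did not overlap, and the difference was under 2-fold without CAB. Its mean was -1.90 (95% interval -3.14 to -0.67, adjusted p = 0.0169 in limma), with -1.50 over the unused pairs, and without the CAB+BRC pair it was -1.63 and not called (adjusted p = 0.0592). CCL7, a chemokine that attracts monocytes, was 16.7, 19.0, 19.0 and 14.1 in GH3 cells and 33.3, 44.5, 205 and 437 in MMQ cells. It was too dim for the main test. Its limma adjusted p without the filter was 0.0109, with a mean log2 difference of -2.59 (SD 1.86 over 4 pairs), and -3.02 over the unused pairs.

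The genes of cell division were close between the lines without CAB. SHCBP1, which binds the SHC adaptor and is made in dividing cells, was at 263, 128, 85.8 and 121 in GH3 cells and at 161, 165, 15.9 and 18.7 in MMQ cells. CDCA3, a regulator of entry into mitosis, was at 688, 436, 301 and 334 against 528, 542, 66.0 and 74.1. ASPM, a spindle pole protein, was at 733, 389, 399 and 449 against 727, 635, 116 and 156. All 3 differed by under 2-fold in the control and BRC pairs and were higher in GH3 cells by 1.52 to 2.63 on the log2 scale in the pairs with CAB. Of these, the pick used the CAB and the control array of MMQ cells. SHCBP1 had a mean log2 difference of 1.33 (adjusted p = 0.0375 in limma, 95% interval 0.27 to 2.39), CDCA3 of 1.10 (adjusted p = 0.0511) and ASPM of 0.65 (adjusted p = 0.191). Over the unused pairs the means were 1.14, 0.92 and 0.41 in the same order. The call of SHCBP1 did not hold without the control pair (adjusted p = 0.0704 in limma), the CAB pair (0.134) or the CAB+BRC pair (0.135).

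**Figure D5:**
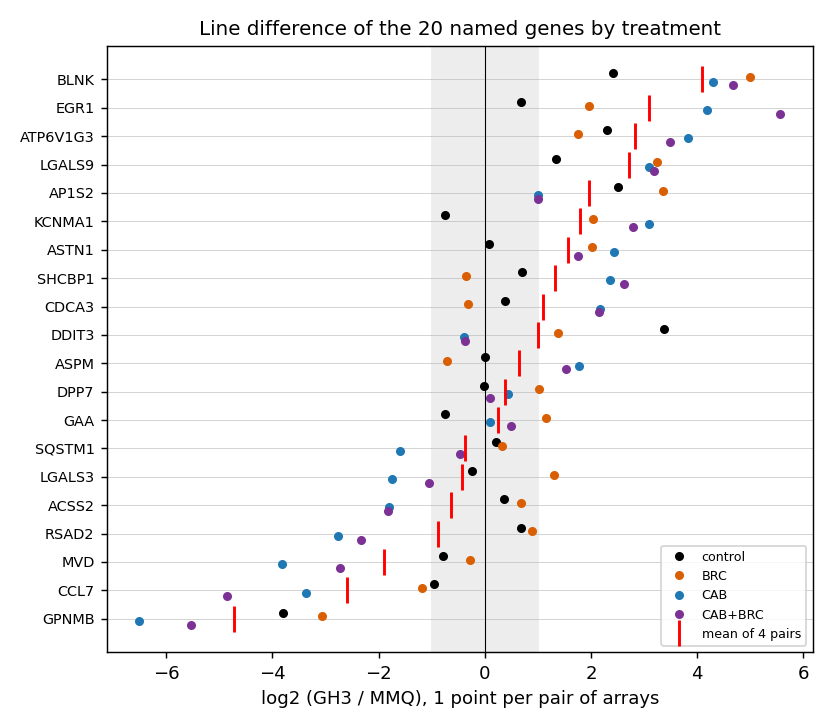
Log2 difference between GH3 and MMQ cells (horizontal axis, above 0 where GH3 was higher) of the 20 named genes, 1 point per pair of arrays coloured by treatment, with a red mark at the mean of the 4 pairs and grey for under 2-fold. BLNK, LGALS9, ATP6V1G3 and GPNMB have all 4 points outside the grey band on one side, and DDIT3 has 3.39 in the control pair and -0.39 and -0.37 in the pairs with CAB.

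DDIT3, also called CHOP and induced when unfolded proteins build up, was the named gene whose untreated lines were furthest apart towards GH3 cells. Its intensity was 1063 in GH3 and 101 in MMQ control cells, a log2 difference of 3.39. With BRC it was 634 against 243. With CAB it was 543 against 714 and with CAB+BRC 705 against 910, so that the lines were close in both pairs with CAB, at -0.39 and -0.37. Over all treatments the mean of 1.00 was not called (95% interval -0.33 to 2.33, adjusted p = 0.173 in limma), and over the unused pairs it was 0.51. SQSTM1, a receptor that carries ubiquitinated cargo to autophagosomes, was at 994, 1314, 809 and 1091 in GH3 cells and 857, 1053, 2433 and 1498 in MMQ cells. Its mean difference was -0.38 (95% interval -1.07 to 0.31, adjusted p = 0.311 in limma), and -0.07 over the unused pairs.

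LGALS3, a galectin, was the named gene at least 2-fold apart in both directions in different pairs. It was at 124, 425, 305 and 418 in GH3 cells and at 146, 171, 1020 and 865 in MMQ cells, which gave 1.31 with BRC and -1.74 with CAB on the log2 scale. The study picked it in both lines on exactly these arrays, and the pair left unused, CAB+BRC, gave -1.05. The lysosomal enzyme GAA, which breaks down glycogen, was at 194, 664, 578 and 635 in GH3 cells and 326, 297, 537 and 450 in MMQ cells. DPP7, a dipeptidyl peptidase, was at 357, 1050, 1333 and 1007 against 360, 516, 983 and 944. ACSS2, an acetyl-CoA synthetase, was at 237, 280, 381 and 248 against 184, 173, 1331 and 881. For these 4 genes the lines overlapped, and limma gave adjusted p-values of 0.421, 0.462, 0.110 and 0.247. Over the unused pairs the log2 difference of GAA, DPP7 and ACSS2 was 0.30, 0.27 and -0.57. RSAD2, an antiviral gene induced by interferon and too dim for the test, was at 29.6, 39.6, 33.7 and 30.9 against 18.0, 20.8, 235 and 159, with -0.71 over the unused pairs. In DPP7 treatment took 84.0% of the sum of squares and the line 7.63%, while in BLNK the line took 92.0%. The line took over 50% in 9 of the 20 genes, where it did in 45.6% of all probe sets. It took under 25% in 10 of the 20, which was not counted over all probe sets.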

How the data were processed

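RNA of GH3 and MMQ cells was measured on Affymetrix rat genome arrays, 1 per line and treatment. The authors extracted the signals in Affymetrix Command Console and deposited an unlogged intensity for 28295 probe sets per array. These are the probe sets meant by all probe sets here, and whether the array carries more was not checked. The sources used here do not give how probes were summarized, background corrected or arrays normalized. All 8 samples were assigned from the labels. Intensities were used as log2 of the intensity plus 1. Pairs of arrays were compared by the 2-fold cutoff of the study's methods, with no test. The line effect was fitted with limma (version 3.58.1, R 4.3.3), two-sided, to all 8 arrays with treatment as a block (3 residual degrees of freedom), over the 14147 probe sets brighter on average than the median one, with Benjamini-Hochberg adjustment. Changes of the line difference with a drug were fitted with CAB and BRC within line, with the spread taken from how far CAB+BRC departs from additivity. The line fit was tested on simulated data with planted line differences. No drug effect was planted, so finding a drug effect that differs between the lines was not tested in this way. The number of arrays limits the precision.

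Gene names came from 26 table entries, with the printed fold matched to a row's ratio at a relative tolerance of 1e-06 (largest relative difference 4.37e-07). The matched folds equal the tables by construction. CCL2 and TTK matched no row and were not analysed here. For 3 matched genes single results are not reported here, but the counts include them. By the annotation 18948 rows have 1 gene symbol, 399 several and 8948 none. Every described gene of the tables was named, whatever its line difference, with the unnamed row of the largest mean difference in each direction. The members, lists and tests were chosen with earlier results of these data known. Alternatives were other normalizations, an offset of 16, other filters, fold cutoffs of 1.5 and 3, other treatment terms, and leaving out pairs or arrays.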

Additional observations from a re-analysis of the deposited data

Results flagged for a closer look

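The effect of CAB differed between the lines for 20 probe sets at an adjusted p under 0.05 in limma, by a test of the difference itself. EGR1 and MVD are among them. For EGR1 the CAB effect in GH3 cells minus that in MMQ cells was 3.55 on the log2 scale (standard error 0.35, adjusted p = 0.0332 in limma). For MVD it was -2.75 (standard error 0.22, adjusted p = 0.0301 in limma). The study picked MVD on the CAB and control arrays of MMQ cells and EGR1 on the BRC and control arrays of GH3 cells, so neither is independent of the arrays tested. With 1 array of MMQ cells left out, BRC or CAB+BRC, 0 probe sets were called.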

How the results depend on the processing

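The line difference is confounded with the culture of each line, and with 1 array per condition the spread is that between treatments. The direction of the 7 called named genes held under each alternative. Of the genes not called, 3 turned sign with 1 pair left out. On the log2 scale GAA ran from -0.0493 (without the BRC pair) to 0.586, LGALS3 from -1.01 to 0.00907 (without the CAB pair) and SQSTM1 from -0.610 to 0.0254 (without the CAB pair), and none was called where the sign turned. Leaving out 1 pair of arrays gave 6351 to 7312 line calls (3275 to 3553 higher and 3076 to 3759 lower in GH3 cells), 2689 to 3058 constant differences, where 3 pairs have to be met in place of 4, and, as a check added after seeing the data, a line share of 85.4% to 89.3%. Leaving out 1 of the GH3 arrays or 1 of the MMQ arrays gave 0 to 431 calls for the line by CAB difference and 0 for BRC. Leaving out 1 array of a pair in the line fit equals leaving out the pair. No condition has a replicate array, and the treatment is the block of the line fit. Without it 8349 probe sets were called, and with CAB and BRC within line 9373. Testing only the probe sets above the upper quartile of brightness gave 4105 line calls, 1944 higher and 2161 lower, with fewer probe sets tested. The line by CAB difference had 31 calls with an offset of 16 and 47 without the filter. At a 1.5-fold cutoff the line pairs had 8020 (control), 8738 (BRC), 9396 (CAB) and 9193 (CAB+BRC) probe sets and 4706 in all 4. At 3-fold they had 2046, 2277, 2403 and 2532, and 1313 in all 4. The drug pairs had 2600, 3014 and 2492 in GH3 cells (BRC, CAB, CAB+BRC) and 751, 2277 and 2778 in MMQ cells at 1.5-fold, and 61, 84, 57, 11, 237 and 212 at 3-fold in the same order. With an offset of 16 they had 301, 435 and 297 in GH3 cells and 40 with BRC in MMQ cells, which was 44 among brighter probe sets. Among brighter probe sets, the share 2-fold apart between lines moved to 56.3% for those higher with CAB in GH3 cells (CAB+BRC pair) and to 30.0% for those lower with CAB in MMQ cells (BRC pair). For BRC in MMQ cells it moved to 28.6% of the higher ones (CAB+BRC pair) and 87.0% of the lower ones (CAB and CAB+BRC pairs), where 21 and 23 probe sets were left. Cutoffs and filters change counts by their construction, and the cause of the other changes was not tested. The calls of KCNMA1, MVD and SHCBP1 depended on single pairs, as given with their values, and SHCBP1 was not called without the treatment term (adjusted p = 0.160). Conversely ACSS2, ASPM, CDCA3 and DDIT3 were called with CAB and BRC within line, CDCA3 with quantile normalization (adjusted p = 0.0451) or an offset of 16 (0.0495), and ASPM (0.0244), CDCA3 (0.00734) and LGALS3 (0.0176) without the BRC pair.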

Other observations

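At least 2-fold higher in GH3 cells in one pair and at least 2-fold lower in another were 15 of the 28295 probe sets. Of these, 5 were higher in the GH3 control and 1 lower, and all 5 were at least 2-fold lower in GH3 cells in a pair with CAB. The range of the 4 differences had a median of 2.81 on the log2 scale in these 15, with 5.06 at most. Among tested probe sets, 362 had over 50% of their sum of squares in treatment common to both lines and a range of at least 2-fold over the 8 arrays. That share was not tested against noise.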
